A study of Homo sapiens with 6 samples.

Results

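The genes described are the ZNF genes on chromosome 19, the numbered zinc finger genes that fill much of that chromosome. They were taken from the deposited array table as the transcript clusters (the array's units of measurement, roughly 1 a gene) that carry exactly 1 gene symbol of the form ZNF and a number and whose identifier places them on chromosome 19. Where a gene had several such clusters, the brightest over all 6 arrays stood for it. The rule found 278 clusters and 259 genes among the 33616 genes tested. The 259 comprise 232 protein-coding genes, 16 pseudogenes and 11 noncoding RNAs named after a neighbouring ZNF gene. A further 13 clusters that carry several symbols were left out. The 350 ZNF genes of other chromosomes and the 1556 other genes on chromosome 19 served as background.

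The arrays compared ATRX KO cells (CAS9 and sgRNAs against ATRX, 3 arrays) with ATRX NC cells (CAS9 and a non-targeting sgRNA, 3 arrays). Both groups were LN229R, the TMZ-resistant derivative of the GBM cell line LN229, according to the design text, while the sample labels say only LN229. The paper made ATRX knockouts in LN229R, HG7R and HG9R cells and does not say which were profiled. All cells went through 7 days of puromycin (10 µg/mL in the paper, 10 mg/ml in the labels) and then 24 hours with the sgRNA virus. Nothing says that the 3 arrays of a group came from separate cultures, so the p-values measure only how far these arrays spread, and that spread may be technical. Whether the ATRX KO cells were 1 clone or a pool is not given in the sources used here.

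Most ZNF genes of chromosome 19 encode KRAB zinc finger proteins, a family that grew by repeated tandem duplication and lies in clusters along the chromosome. A KRAB protein binds DNA through its array of fingers and recruits TRIM28, which brings in SETDB1 and the mark H3K9me3, and many of these proteins silence retroelements in this way. The ZNF genes themselves carry H3K9me3 toward their 3′ ends, where ZNF274 recruits SETDB1 and where ATRX, the chromatin remodeler knocked out here, is known to bind.

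The start regions of these genes were alike over most pairs in 1 stretch of the chromosome, described below, but not in the other stretches compared. RefSeq promoters of assembly GRCh38.p14, which run from 250 bases before to 50 after the start, were found for 213 of the 259 genes. The 4 printed here come from the 2 genes with the lowest adjusted p, ZNF146 and ZNF121, and from a pair of related genes of 1 stretch of the chromosome with lower values in ATRX KO cells, ZNF208 and ZNF91. Capitals mark CCGGAAG, the core letters of an ETS-type site, and GGGCGG, a GC box, on either strand.
ZNF146 (chr19:36214856-36215155, plus strand): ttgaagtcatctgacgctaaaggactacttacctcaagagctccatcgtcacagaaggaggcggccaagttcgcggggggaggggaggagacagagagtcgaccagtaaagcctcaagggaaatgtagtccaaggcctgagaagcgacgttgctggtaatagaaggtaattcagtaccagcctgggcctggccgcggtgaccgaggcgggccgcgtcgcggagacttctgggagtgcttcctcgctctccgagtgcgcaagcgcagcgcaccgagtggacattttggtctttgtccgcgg
ZNF121 (chr19:9584455-9584754, minus strand): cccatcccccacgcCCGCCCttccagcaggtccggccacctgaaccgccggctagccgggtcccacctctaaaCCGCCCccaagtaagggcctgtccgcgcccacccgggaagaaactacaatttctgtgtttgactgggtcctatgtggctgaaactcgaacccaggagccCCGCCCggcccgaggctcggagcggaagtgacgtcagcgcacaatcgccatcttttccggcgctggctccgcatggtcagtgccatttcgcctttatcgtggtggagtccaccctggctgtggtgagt
ZNF208 (chr19:22010894-22011193, minus strand): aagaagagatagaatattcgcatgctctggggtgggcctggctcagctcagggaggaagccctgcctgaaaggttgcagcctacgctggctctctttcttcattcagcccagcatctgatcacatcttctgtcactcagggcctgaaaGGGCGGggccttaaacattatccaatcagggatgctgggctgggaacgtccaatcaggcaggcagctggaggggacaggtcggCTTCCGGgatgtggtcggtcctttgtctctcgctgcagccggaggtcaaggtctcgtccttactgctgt
ZNF91 (chr19:23395422-23395721, minus strand): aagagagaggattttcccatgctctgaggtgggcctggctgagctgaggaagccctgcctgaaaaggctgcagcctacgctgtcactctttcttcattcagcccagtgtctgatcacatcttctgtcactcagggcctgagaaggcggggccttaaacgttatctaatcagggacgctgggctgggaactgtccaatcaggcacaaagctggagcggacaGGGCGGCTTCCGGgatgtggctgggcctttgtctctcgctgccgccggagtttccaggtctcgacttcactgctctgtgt
The promoters of ZNF208 and ZNF91 were 86.0% identical in a global alignment, and each holds both motifs, which lie directly beside each other in ZNF91 without overlapping. ZNF146 and ZNF121 were 49.0% identical, ZNF146 holds neither motif, and ZNF121 holds GGGCGG 3 times. CCGGAAG occurred in 95 of the 213 promoters (44.6%), in 34.2% of 219 promoters of ZNF genes on other chromosomes and in 10.7% of all 27305 promoters of the table. GGGCGG occurred in 66.7% of the 213, in 59.4% of the 219 and in 44.6% of all promoters. A match of letters describes the sequence and shows no bound factor.

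The clusters of the chromosome 19 ZNF genes had a median log2 intensity of 8.70 (range 3.44 to 16.07), and 224 of the 259 lay above 6.10, the median over all genes. Intensity depends on the probes as well as on the RNA, so these values give no order of expression between genes. The highest intensity belonged to a ZNF160 cluster, with 16.06, 15.99 and 16.07 on the ATRX KO arrays and 16.23, 16.10 and 15.95 on the ATRX NC arrays. That cluster carries no Entrez number, and the second ZNF160 cluster, which does, averaged 7.74. ZNF611, a KRAB gene, came next with a mean of 13.97 in ATRX KO cells and 13.95 in ATRX NC cells, so neither of the brightest pair moved beyond the spread of its arrays.

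ATRX itself, the check of the labels, had log2 intensities of 8.47, 8.67 and 8.75 on the ATRX KO arrays and 10.49, 10.22 and 10.14 on the ATRX NC arrays. Its level in ATRX KO cells was 31.8% of that in ATRX NC cells (log2 fold change -1.65 ± 0.16, SE, adjusted p = 0.000561). Arrays of the same group correlated at 0.990 to 0.992 over all genes and arrays of different groups at 0.980 to 0.981, and no array stood apart. VIM was at 17.07 on average, whereas the glial markers GFAP and OLIG2, at 5.28 and 4.92, lay below the median gene level in both groups. Some markers of other cell types differed with the genotype. Of 9 fibroblast markers 5 rose (FAP, LUM, PDGFRB, DCN and TAGLN), and of 8 immune and endothelial markers CD68 and PECAM1 rose. Of 5 epithelial markers KRT19 rose, and of 7 glioma markers S100B and NES fell. Log2 levels were also summed on each array over every marker of a list, called or not. For the 9 fibroblast markers the sums were 86.5 to 89.1 in ATRX KO and 70.5 to 72.1 in ATRX NC. For the 8 immune and endothelial markers they were 53.1 to 55.2 in ATRX KO and 47.2 to 48.8 in ATRX NC. The 5 epithelial markers summed to 33.5 to 35.8 in ATRX KO and 32.0 to 32.8 in ATRX NC. The 7 glioma markers summed to 75.4 to 76.5 in ATRX KO and 78.3 to 79.7 in ATRX NC. The glioma markers did not move together. S100B and NES differed by -2.93 and -1.02, whereas SOX2 and CD44 differed by 0.44 and 0.26. For SOX2 and CD44 all ATRX KO arrays lay above all ATRX NC arrays (adjusted p = 0.140 and 0.330 by limma). PTPRC, which defines immune cells, had 5.82, 6.16 and 5.66 in ATRX KO cells and 5.75, 6.12 and 5.54 in ATRX NC cells. The epithelial marker EPCAM averaged 4.12 ± 0.57 in ATRX KO cells and 3.22 ± 0.41 in ATRX NC cells (SD, n = 3 each), with groups that did not overlap (0.90 ± 0.31, SE, adjusted p = 0.116), and CDH1 differed by 0.60 ± 0.25 (adjusted p = 0.183). Both EPCAM and CDH1 averaged under 4.79, the 25th percentile of gene levels, in each group. The other epithelial markers, KRT18 and KRT8, were brighter (11.11 and 8.96) and differed by -0.13 and -0.02. Of the 4 fibroblast markers not called, COL1A2 and THY1 differed by 0.68 and 0.48, COL1A1 and ACTA2 by -0.31 and -0.09. The part of the marker differences in the ZNF values was not tested. In such bulk samples fewer cells of a type and less RNA per cell cannot be told apart.

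After loss of ATRX, 12 chromosome 19 ZNF genes fell and 3 rose at an adjusted p under 0.05 by limma, and 244 did not pass. The 12 that fell were ZNF781, ZNF146, ZNF480, ZNF551, ZNF121, ZNF577, ZNF253, ZNF566, ZNF112, ZNF439, ZNF208 and ZNF8. ZNF861P, ZNF211 and ZNF625 rose. The share that fell was 4.63%, beside 3.72% of all genes, and the share that rose was 1.16%, beside 5.79% of all genes. Among ZNF genes of other chromosomes 21 of 350 fell (6%) and 4 rose (1.14%), while among the other genes of chromosome 19 only 23 of 1556 fell (1.48%) and 76 rose (4.88%). The shares of the chromosome 19 ZNF genes were thus close to those of ZNF genes elsewhere in these deposited values.

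At an unadjusted p under 0.05 there were 57 members (22.0%, 15 higher and 42 lower), beside 24.3% of all genes. All ATRX KO arrays lay above all ATRX NC arrays for 26 members (10.0%), beside 19% of all genes, and below them for 59 members (22.8%), beside 11.2% of all genes. Among ZNF genes of other chromosomes the corresponding shares were 7.71% and 20.3%. These shares also depend on level. Above the median gene level all ATRX KO arrays lay below for 25.9% of the 224 members there and 17.4% of all genes. They lay above for 8.48% and 27.9%, and 23.2% and 35.9% reached an unadjusted p under 0.05. Arrays of both groups thus separated downward in the ZNF genes more often than upward, on chromosome 19 and elsewhere. The reverse held over all genes in the deposited values. There the median over all genes was 6.14 to 6.17 on the ATRX KO arrays and 6.03 to 6.10 on the ATRX NC arrays. With each array rescaled (quantile, median centring or cyclic loess), 4.35% to 4.49% of all genes rose and 4.63% to 4.77% fell by limma. The separation of arrays was not counted again after rescaling, and no test of its shares was made.

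The median log2 fold change of the 259 genes was -0.08 (quartiles -0.31 and 0.12, range -1.14 to 0.86), and 160 of them (61.8%) were below 0. The median was -0.05 in ZNF genes of other chromosomes (58.3% below 0), 0.12 in the other chromosome 19 genes (33.8% below 0) and 0.07 in all genes (41.4% below 0). After the rescalings the median of the members was -0.18, -0.17 and -0.16 and that of all genes lay between -0.02 and 0.00, so the members stood below all genes by 0.15 to 0.17 there and by 0.15 as deposited. A change of less than 0.5 in either direction was found in 86.5% of the members and in 79.8% of all genes, and 3 members (1.16%) reached a change of 1, beside 4.25% of all genes.

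**Figure D1:**
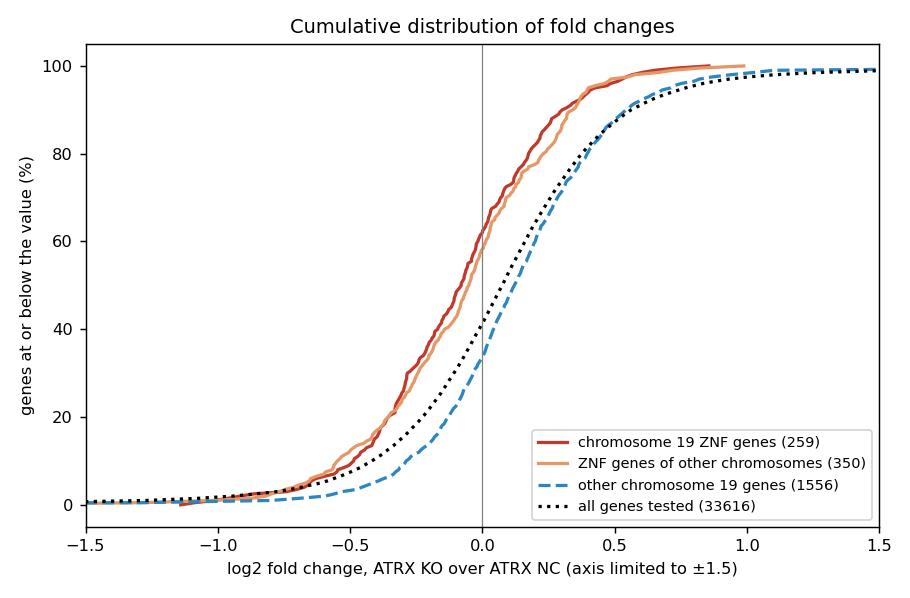
Cumulative share of genes (%) against the log2 fold change of ATRX KO over ATRX NC, for the 259 chromosome 19 ZNF genes, the 350 ZNF genes of other chromosomes, the 1556 other chromosome 19 genes and all 33616 genes. Both ZNF curves lie left of the other 2 through the middle of the range, with medians of -0.08 and -0.05 against 0.12 and 0.07.

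These counts depended on the scaling of the arrays and on single arrays. With each array rescaled (quantile, median centring or cyclic loess) the split was 2 higher and 19 to 21 lower members, ZNF625 being the gene lost among those that rose, and the shares that fell were 7.34% to 8.11% of the members and 4.63% to 4.77% of all genes. The shares that rose were then 0.772% of the members and 4.35% to 4.49% of all genes. With any 1 array left out 1 to 3 members rose (0.386% to 1.16%, beside 3.08% to 4.03% of all genes). In those fits 6 to 8 members fell (2.32% to 3.09%, beside 2.20% to 2.49% of all genes). With the variance trend and robust fit 11.2% of the members and 5.75% of all genes fell.

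The largest fall among the 87 brightest members was in ZNF146. This gene encodes a protein made almost wholly of zinc fingers, without a KRAB domain, and is amplified in some pancreatic tumors. Its log2 intensities were 13.22, 13.50 and 13.14 on the ATRX KO arrays and 14.32, 14.53 and 14.33 on the ATRX NC arrays. Every ATRX KO value was thus below every ATRX NC value, with a level in ATRX KO cells of 46.5% of that in ATRX NC cells (log2 fold change -1.10 ± 0.16, adjusted p = 0.00418). ZNF121, reported as a partner of MYC, had 12.55, 12.49 and 12.59 in ATRX KO cells and 13.51, 13.43 and 13.55 in ATRX NC cells. Its change was the largest of all members relative to its SE (-0.96 ± 0.14, adjusted p = 0.00399).

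Several KRAB zinc finger genes fell by a similar amount. ZNF480 had 11.39, 11.75 and 11.41 in ATRX KO cells and 12.55, 12.31 and 12.82 in ATRX NC cells (-1.05 ± 0.19, adjusted p = 0.0113). ZNF253 had 12.54, 12.55 and 12.30 in ATRX KO cells and 13.46, 13.44 and 13.19 in ATRX NC cells (-0.90 ± 0.16, adjusted p = 0.0105). Both were among the brighter members, and their groups lay apart. ZNF551 was dimmer, at 7.90, 8.08 and 8.26 in ATRX KO cells and 9.02, 9.02 and 9.16 in ATRX NC cells (-0.99 ± 0.16, adjusted p = 0.00621). ZNF577 stood at 8.96, 9.13 and 8.87 in ATRX KO cells and 9.98, 9.94 and 9.80 in ATRX NC cells (-0.92 ± 0.15, adjusted p = 0.0072). The groups did not overlap for any of these genes.

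ZNF208, whose locus is associated with telomere length in human populations, had 12.26, 12.20 and 12.27 in ATRX KO cells and 12.96, 12.74 and 12.96 in ATRX NC cells (-0.64 ± 0.14, adjusted p = 0.0285). The numerically largest fall, in ZNF781, listed by RefSeq as a pseudogene, was the least even. Its values were 6.99, 5.96 and 6.66 in ATRX KO cells and 7.45, 7.86 and 7.71 in ATRX NC cells, with 1 ATRX KO array well below the other two (-1.14 ± 0.26, adjusted p = 0.0324). ZNF566, ZNF112, ZNF439 and ZNF8 fell by 0.82, 0.68, 0.65 and 0.59 on the log2 scale, with adjusted p between 0.0296 and 0.0427. ZNF8 lay outside the rule for named genes and was added after its values were seen.

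Of the genes that rose, ZNF861P, a pseudogene, had 4.28, 4.27 and 4.13 in ATRX KO cells and 3.42, 3.29 and 3.39 in ATRX NC cells (0.86 ± 0.14, adjusted p = 0.00755). Both groups lie under 4.79, the 25th percentile of gene levels, and the table holds no detection call, so whether the gene was above background is not known. ZNF211, a KRAB gene, had 8.68, 8.50 and 8.80 in ATRX KO cells and 7.85, 8.03 and 7.87 in ATRX NC cells (0.74 ± 0.15, adjusted p = 0.0195). It is the direct neighbour of ZNF551 in the order of members, and the pair moved in opposite directions. ZNF625 had 10.56, 10.45 and 10.33 in ATRX KO cells and 9.99, 9.58 and 9.68 in ATRX NC cells (0.70 ± 0.17, adjusted p = 0.0355).

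**Figure D2:**
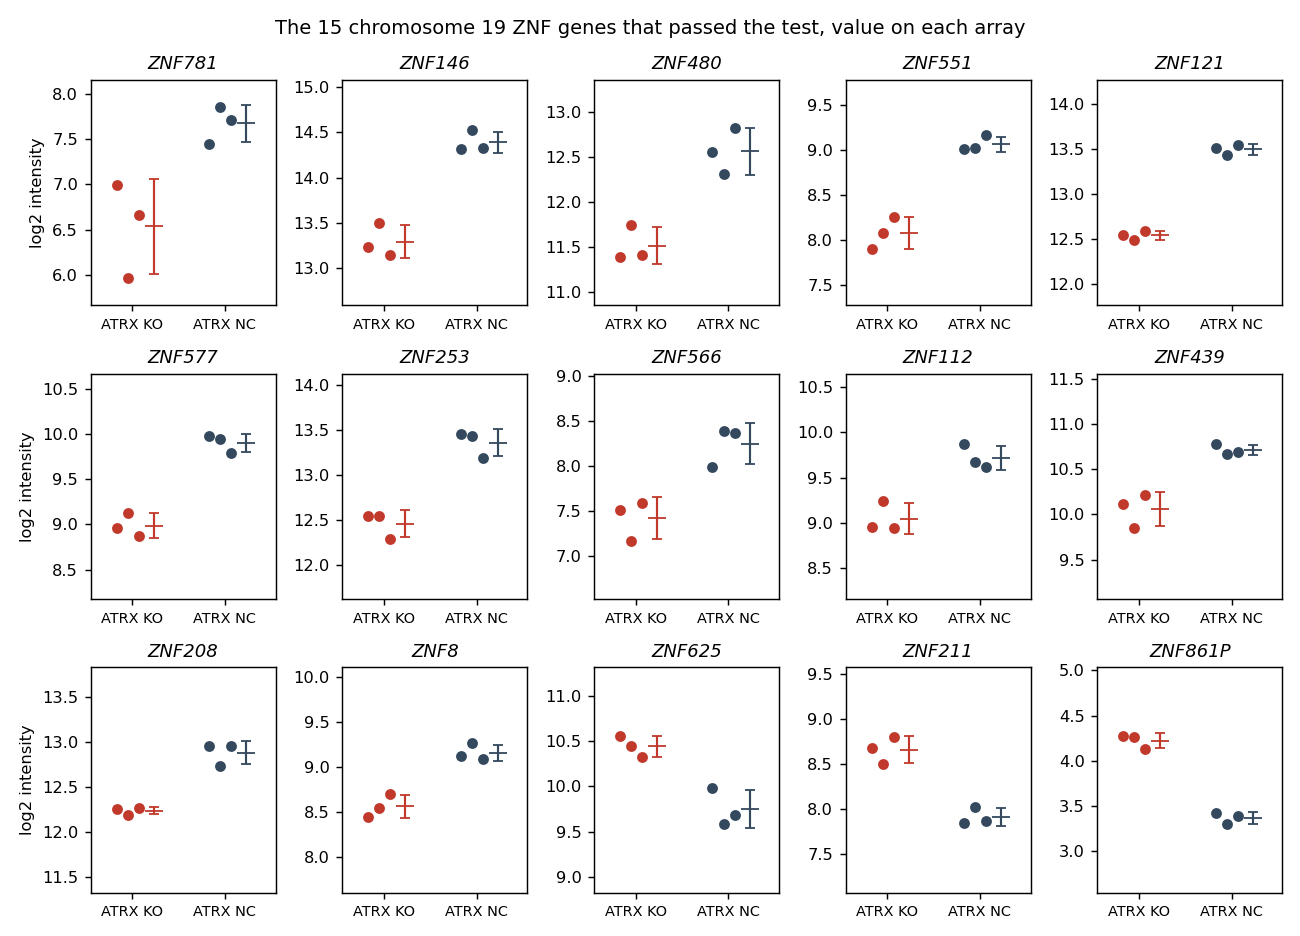
Log2 intensity on each array for the 15 members that passed the test, with ATRX KO on the left of each panel and ATRX NC on the right, mean and SD beside the points, and an equal axis span in every panel. The groups do not overlap in any panel, and ZNF781 shows the widest spread among the ATRX KO arrays (SD 0.53).

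A total of 7 of these calls did not depend on any single array. ZNF121, ZNF146, ZNF253, ZNF480, ZNF551, ZNF577 and ZNF861P passed with each of the 6 arrays left out in turn, whereas ZNF211 was lost in 4 of the 6 fits, ZNF112, ZNF208, ZNF566, ZNF625 and ZNF781 in 5 and ZNF439 and ZNF8 in all 6. When every transcript cluster of the array was tested, an alternative added after seeing the data, only ZNF121, ZNF146 and ZNF551 passed (adjusted p = 0.0357, 0.0297 and 0.0437).

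None of the 5 members named here for acting on retroelements passed. ZNF91, which silences SVA elements, came closest, with 9.47, 9.63 and 9.98 in ATRX KO cells and 10.29, 10.38 and 10.37 in ATRX NC cells (-0.65 ± 0.17, adjusted p = 0.0503). Its groups did not overlap, and it passed under 8 of the alternatives. Its dimmer clusters, at mean levels of 8.94 and 4.59, differed by -0.31 and 0.12. ZNF676, which binds endogenous retroviral sequences, had 6.97, 6.97 and 6.75 in ATRX KO cells and 7.40, 7.81 and 7.41 in ATRX NC cells (-0.65 ± 0.17, adjusted p = 0.052). ZNF93, which silences LINE-1 elements, overlapped between the groups, with 8.06, 7.26 and 7.84 in ATRX KO cells and 7.58, 8.02 and 8.09 in ATRX NC cells (-0.18 ± 0.24, adjusted p = 0.711). The close pair ZNF417 and ZNF587, both linked to HERV-K, had fold changes of -0.18 and 0.07 and did not pass.

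ZNF274, the member that directs SETDB1 to the 3′ ends of ZNF genes, was low in both groups, with 5.37, 5.00 and 5.35 in ATRX KO cells and 5.05, 4.97 and 5.70 in ATRX NC cells. The difference was 0.00 ± 0.22 on the log2 scale, and the level lies under the median gene. None of the 8 genes named for endogenous retroviruses passed (1 at an unadjusted p under 0.05), and their median fold change was -0.27, beside 0.07 in all genes. ERVW-1, which encodes syncytin-1, had 6.62, 6.71 and 5.98 in ATRX KO cells and 6.90, 6.73 and 7.31 in ATRX NC cells (-0.54 ± 0.24, adjusted p = 0.213), and ERVMER34-1 had a difference of -0.39 ± 0.15 at the lowest level of the list (adjusted p = 0.165).

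Several other members have roles known from cancer or signaling, and none of those given next passed. ZNF224, a repressor of aldolase A and a partner of WT1, had 10.66, 10.62 and 10.57 in ATRX KO cells and 11.33, 11.09 and 11.01 in ATRX NC cells (-0.52 ± 0.15, adjusted p = 0.0699). Its neighbour ZNF221 was similar (-0.56 ± 0.15, adjusted p = 0.0572). ZNF350, also called ZBRK1, a repressor that works with BRCA1, had 8.53, 8.67 and 8.91 in ATRX KO cells and 8.20, 8.30 and 8.46 in ATRX NC cells (0.38 ± 0.16, adjusted p = 0.199). The groups lay apart for each of these 3 genes, and none passed. Among members whose promoters are often methylated in tumors, ZNF382 (0.02), ZNF331 (0.06), ZNF154 (0.14), ZNF671 (0.16), ZNF135 (-0.12) and ZNF667 (-0.29) all had log2 fold changes under 0.3 in size and adjusted p of 0.336 or more.

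ZNF473, needed for processing of histone pre-mRNA, had 8.50, 8.68 and 8.80 in ATRX KO cells and 9.33, 9.07 and 8.97 in ATRX NC cells (-0.46 ± 0.16, adjusted p = 0.126). ZNF649, a repressor of MAPK-driven transcription, had 10.48, 10.54 and 10.50 in ATRX KO cells and 11.10, 10.89 and 10.87 in ATRX NC cells (-0.45 ± 0.14, adjusted p = 0.0975). Both lay apart between the groups without passing. ZNF675, which binds TRAF6, and ZNF43 differed by -0.41 ± 0.16 and -0.54 ± 0.19 (adjusted p = 0.156 and 0.128), while ZNF85 and ZNF460 had smaller differences of -0.22 and -0.24.

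Brighter members were lower in ATRX KO cells than dimmer ones. Over the 259 genes, fold change and mean level were related with r = -0.31 and rho = -0.30, and over all 33616 genes with r = 0.03. Among the 86 dimmest genes the median fold change was 0.02 and 1 gene passed in each direction. Among the 86 genes of middle level the median was -0.08, with 1 higher and 4 lower, and among the 87 brightest it was -0.18, with 1 higher, 7 lower and 75.9% of genes below 0. Calls became more frequent with level in the whole table too. Over all genes within the same ranges of level, 1.32%, 7.97% and 8.89% fell and 2.88%, 10.2% and 12.6% rose, with medians of 0.07, 0.10 and 0.10, so the share of the brightest members that fell (8.05%) was near that of all genes of like level. ZNF genes of other chromosomes behaved alike. Above the median gene level their median was -0.10 (65.4% below 0), beside -0.11 in the members (65.6% below 0). Without that limit on level the medians were -0.05 and -0.08. Levels of dim genes can be compressed on arrays, by an amount that was not tested. Fold change was also weakly related to the length of the gene in the genome (rho = -0.22), with a like value of -0.23 over 292 ZNF genes of other chromosomes. Genes in these relations share the same 6 arrays and many share ancestry, so no p is given.

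**Figure D3:**
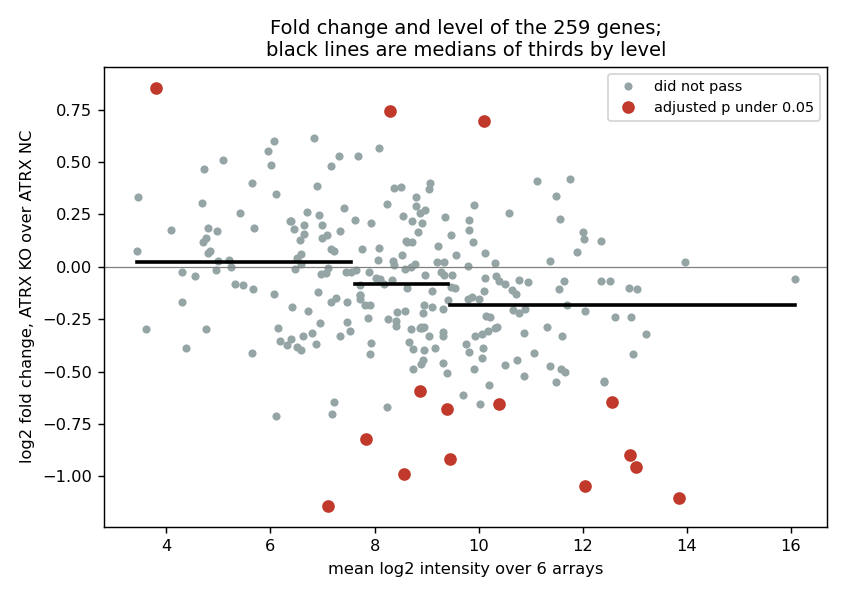
Log2 fold change of ATRX KO over ATRX NC against the mean log2 intensity over 6 arrays for the 259 members, with those that passed in red and the medians of the 86 dimmest, 86 middle and 87 brightest genes as black lines. The lines step down with level, at 0.02, -0.08 and -0.18.

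Along the chromosome the members fell into 17 blocks when a gap of more than 1 Mb between neighbours started a new one, and 9 blocks held 5 or more members. The block from ZNF101 to ZNF254 (39 members, 34 protein-coding), which includes ZNF208, ZNF91, ZNF43, ZNF85, ZNF93 and ZNF253, stood lowest among these 9 by its median, -0.29 (range -0.90 to 0.22). Of its members 34 were below 0, and 18 (46.2%, beside 11.2% of all genes) had all ATRX KO arrays below all ATRX NC arrays while 0 had them above. ZNF253 and ZNF208 passed by limma (5.13%, beside 3.72% of all genes lower), and 13 reached an unadjusted p under 0.05 (33.3%, beside 24.3% of all genes), all lower in ATRX KO cells. However, 36 of the 39 lay above the median gene level. Over all genes above that level 17.4% had all ATRX KO arrays below all ATRX NC arrays. There 6.78% of genes fell and 35.9% reached an unadjusted p under 0.05, both more than in the block. The median of the block was 9.47, 9.52 and 9.51 on the ATRX KO arrays and 9.90, 10.10 and 10.01 on the ATRX NC arrays, so all ATRX KO arrays were below all ATRX NC arrays. The 29 other genes within the same stretch had a median fold change of 0.18, with 2 higher and 0 lower. The block was singled out after its values were seen, and no test of it was made.

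Members of this block were also bright (median level 9.82, against 8.59 for the 220 members outside it). Among the 87 brightest members, the 20 in the block had a median fold change of -0.37, with 19 below 0, and the 67 outside it had -0.10, with 70.1% below 0. Outside the block, all 220 members had a median of -0.05. Among block members that did not pass, ZNF626 and ZNF738 differed by -0.55 and -0.49 with groups apart (adjusted p = 0.0774 and 0.0722), and both were chosen after their values were seen. ZNF99 and ZNF101 were the highest, at 0.22 and 0.17. These genes are close duplicates, and whether the array's probes tell each of them apart was not tested, so their values may not be independent of each other.

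**Figure D4:**
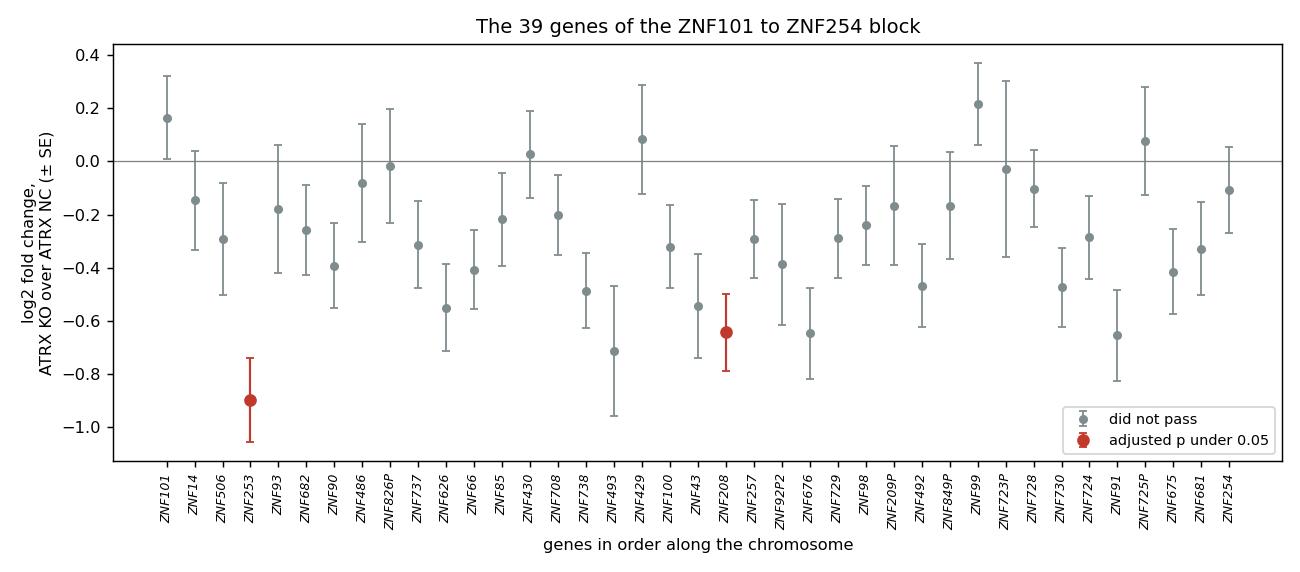
Log2 fold change of ATRX KO over ATRX NC with its SE for the 39 members of the block from ZNF101 to ZNF254, in order along the chromosome, with the pair that passed in red. Most points lie between 0 and -0.7, and 5 lie above 0.

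The promoters of this block were also the most alike. Over all pairs of its 25 matched promoters the median identity was 75.4% (300 pairs), while in the 5 other blocks with 20 or more promoters it lay between 50.7% and 52.9%. CCGGAAG occurred in 18 of the 25 (72.0%) and the median number of CpG was 10, against 20 over all 213 members. Over the members, however, the motif went with little difference in fold change. The 95 genes with CCGGAAG had a median of -0.10 and the 118 without it -0.05, their median levels were 9.31 and 8.42, and 2 of the 9 promoters of members that fell hold it. The number of CpG in the promoter was not related to the fold change (r = 0.03, 213 genes) and weakly to the level (r = -0.23). The other motifs searched were AAGATGG (9.39% of the 213 promoters and 6.06% of all), TGACGTCA (3.29% and 1.98%), GCGCATGC (4.23% and 3.27%) and GAAANNGAA (4.23% and 8.29%), on both strands.

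The other blocks with 5 or more members had medians between -0.19 and 0.03. The block from ZNF565 to ZNF573 (29 members) had a median of -0.19, with 22 below 0 (75.9%, beside 41.4% of all genes). It held ZNF146, ZNF566 and ZNF781, which fell (10.3%). Of all genes 3.72% fell, and of those above the median gene level 6.78%. The block from ZNF575 to ZNF296 (25 members, median -0.15) held ZNF112 (4.0% lower). The block from ZNF175 to ZNF331 (42 members, median -0.03) held ZNF577 and ZNF480 (4.76% lower). The largest, from ZNF628 to ZNF446 (58 members), had a median of 0.01, with ZNF551 and ZNF8 lower (3.45%). ZNF211 was higher there (1.72%, beside 5.79% of all genes). From ZNF653 to ZNF791 (27 members, median 0.03) ZNF625 rose and ZNF439 fell (3.70% each). From ZNF557 to ZNF846 (15 members, median 0.03) only ZNF121 fell (6.67%). ZNF146 and ZNF566 are direct neighbours in the order of members and both fell, ZNF211 and ZNF551 are the pair of opposite sign given above, and the other members that passed had no direct neighbour that passed. Fold changes of neighbouring members of a block were related with r = 0.19 and rho = 0.23 over 242 pairs.

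**Figure D5:**
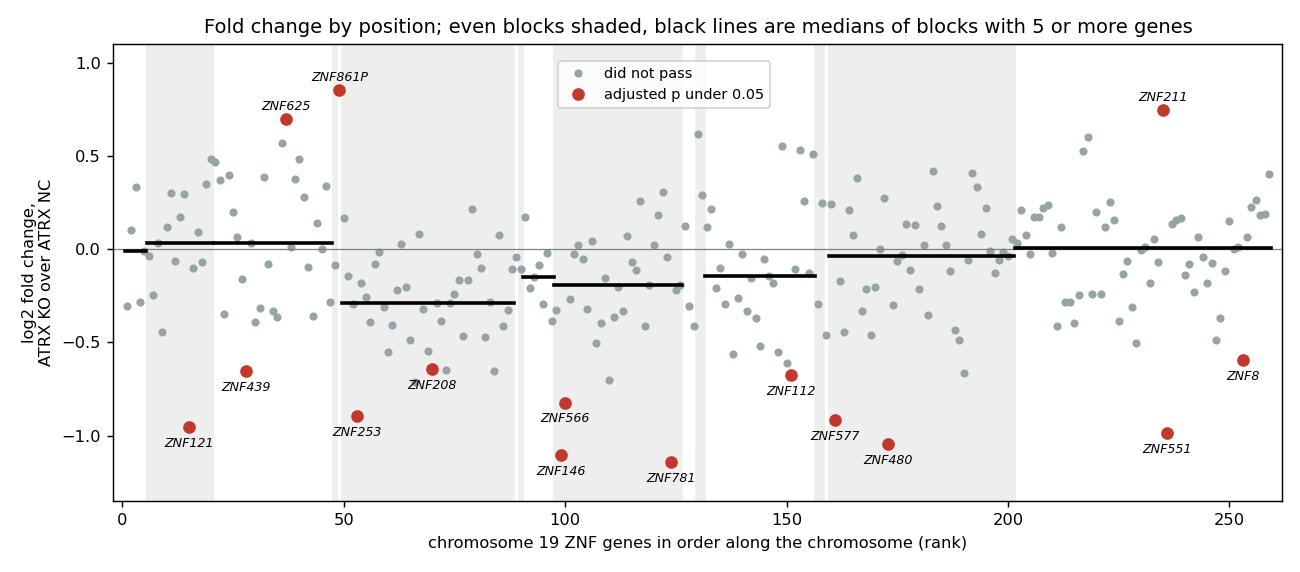
Log2 fold change of ATRX KO over ATRX NC for the 259 members in order along chromosome 19, with blocks shaded in turn, black lines at the medians of the 9 blocks with 5 or more members, and members that passed in red and named. The block medians run from -0.29 to 0.03.

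Blocks with 1 to 3 members added few values. ZNF574 and ZNF526 form a pair, and ZNF574 had 7.19, 6.83 and 7.41 in ATRX KO cells and 6.71, 6.51 and 6.37 in ATRX NC cells (0.62 ± 0.19, adjusted p = 0.0872). ZNF780A and ZNF780B, recent duplicates, had differences of -0.41 and -0.30 with groups apart. Of the 5 members that stand alone, ZNF861P rose as given above and ZNF473 differed by -0.46 with groups apart without passing, while ZNF507, ZNF333 and ZNF536 differed by -0.11, -0.09 and -0.04.

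The 11 noncoding RNAs, which lie antisense to or start beside a ZNF gene, did not pass, and 8 of them had the sign of their partner gene. ZNF582-DT had the largest difference, -0.42 (adjusted p = 0.107), against -0.02 for ZNF582. ZNF667-AS1, low in several tumors, had 8.04, 8.46 and 8.31 in ATRX KO cells and 8.80, 8.45 and 8.42 in ATRX NC cells, and its difference of -0.28 was close to the -0.29 of ZNF667. Of the 15 members with more than 1 cluster, some had clusters that disagreed. The brightest ZNF875 cluster differed by 0.26 and the second by -0.59, and the clusters of ZNF506 differed by -0.29 and 0.61. None of the 19 dimmer clusters or the 13 with several symbols passed when every transcript cluster was tested (lowest adjusted p = 0.193), and 1 of the 19 and 2 of the 13 reached an unadjusted p under 0.05.

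Of the machinery through which KRAB proteins act, 25 of 28 listed genes were measured. CHD4 and TRIM28 rose (8% of the 25, beside 5.79% of all genes). ATRX, the gene knocked out, and ATF7IP fell (8%, beside 3.72% of all genes), and the other 21 did not pass. Of the 25 genes 24 lay above the median gene level. Over all genes above that level 9.89% rose and 6.78% fell, so these shares were near those of genes of like level. TRIM28, the corepressor that KRAB domains bind, had 13.80, 13.66 and 14.01 in ATRX KO cells and 13.02, 12.74 and 12.93 in ATRX NC cells (0.92 ± 0.16, adjusted p = 0.0102). ATF7IP, which stabilizes SETDB1 in the nucleus, had 13.01, 12.76 and 12.81 in ATRX KO cells and 13.80, 13.81 and 13.73 in ATRX NC cells (-0.92 ± 0.14, adjusted p = 0.00621). Both genes lay apart between the groups, in opposite directions. CHD4, the helicase of the NuRD complex that TRIM28 recruits, rose by 0.95 ± 0.14 (adjusted p = 0.00418), and SETDB1 differed by -0.02 (adjusted p = 0.943). The median fold change of the 25 genes was -0.05, beside 0.07 in all genes.

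Genes of chromosome 19 with other kinds of zinc finger symbol (ZFP, ZSCAN, ZIM, ZBTB, PEG3, ZIK or KLF, 22 genes) had a median fold change of 0.03. The antisense RNAs PEG3-AS1 and ZIM2-AS1 are among the 22. Only PEG3-AS1, the antisense RNA of an imprinted gene, passed, and it fell (4.55% of the 22, beside 3.72% of all genes). It had 5.03, 5.43 and 4.96 in ATRX KO cells and 6.15, 5.71 and 5.98 in ATRX NC cells (-0.80 ± 0.19, adjusted p = 0.036 by limma). ZIM3, whose KRAB domain is among the most potent repressors, had 5.18, 5.16 and 5.42 in ATRX KO cells and 4.81, 4.91 and 4.65 in ATRX NC cells (0.47 ± 0.15, adjusted p = 0.106), a level under the median gene in both groups.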

How the data were processed

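RNA of 3 ATRX KO and 3 ATRX NC samples was measured on arrays. The deposited values are log2 intensities, quantile-normalized by the authors with limma. How background was corrected and probes were summarized is not given in the sources used here. In the methods Agilent arrays are named, but the probe identifiers and the labelling kit belong to an Affymetrix whole-transcript design. Arrays have no read depth, so the number of arrays limits the precision, and no detection call comes with the table.

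Clusters were named from the platform annotation (36176 of 135748 carry 1 symbol, 1119 several and 98453 none), with symbols updated through Entrez numbers to RefSeq of GRCh38.p14 (25516 matched, 257 of the 259 members among them). Order and blocks follow RefSeq starts. All 33616 genes entered lmFit and eBayes (limma 3.58.1, R 4.3.3) with no filter on level, and p-values were adjusted by Benjamini-Hochberg over all of them. The fit was tested on simulated data. Robust fits used statmod 1.5.0.

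The members, lists and tests were chosen with earlier results of these data known. Genes were named by rule: the 10 largest rises and falls among members that passed with groups apart, up to 2 members of each block with the smallest p, the 3 brightest, members with a known role, up to 4 genes of each other list, and ATRX. Alternatives were 3 rescalings, 2 filters on dim genes, the mean over clusters, a robust fit with a variance trend, a replicate block, each array left out, the methods' t-test and protein-coding genes alone. The test over all transcript clusters was added after seeing the data. Protein sequences were not analysed here, and 0 sample columns were left unused.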

Additional observations from a re-analysis of the deposited data

How the results depend on the processing

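The 12 members that fell passed under all 3 rescalings, the robust fit, the mean over clusters and either filter on dim genes, and no member that passed changed sign. The median fold change of the members was -0.18 after quantile normalization again, against -0.08 as deposited, and -0.12 to -0.05 with each array left out in turn. Lower members numbered 19 after quantile normalization, 21 after median centring, cyclic loess or the milder filter on dim genes, 34 of 224 above the median level (7 higher), 29 in the robust fit, 23 of 230 among protein-coding genes alone (5 higher), and 17 higher and 41 lower by the methods' t-test before adjustment. After adjustment that test gave 2 higher and 9 lower members, with 7 of the 12 falls kept, and ZNF112, ZNF439, ZNF480, ZNF566, ZNF781 and ZNF625 were lost. With a replicate block 1 rose and 6 fell, and over all transcript clusters 0 rose and 3 fell, in a fit where both the adjustment and the moderated variance ran over all clusters. The share of all genes that fell moved with the setting too. Above the median level 15.2% of the members and 11.4% of all genes fell, and with the milder filter 8.57% and 6.19%. Among protein-coding genes alone the shares were 10.0% and 8.16%. The methods' t-test gave 15.8% and 8.25% before adjustment and 3.47% and 2.29% after it. With the replicate block they were 2.32% and 2.39%, and over all transcript clusters 1.16% and 1.48%. Leaving out each array in turn gave 1 to 3 higher and 6 to 8 lower members. The shares that fell were then 2.32% to 3.09% of the members and 2.20% to 2.49% of all genes. For ZNF genes of other chromosomes, against 4 higher and 21 lower, lower genes numbered 32 after median centring, 39 above the median level and 34 in the robust fit. The methods' t-test gave 16 higher and 53 lower before adjustment and 1 and 12 after it, the replicate block 2 and 7, all transcript clusters 0 and 4, and arrays left out in turn 1 to 3 and 6 to 12. No pairing by replicate number was seen in these values. Deviations from the group means in samples with the same number correlated at -0.02, -0.04 and -0.004. No ATRX KO sample correlated best with its own number. Such correlations cannot tell whether samples with the same number shared a culture or a batch. The causes of the other differences were not tested. Among 65 named genes, 11 that did not pass changed sign under an alternative that did not call them. Signal over background is unknown here, so values of dim members such as ZNF861P have no floor.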
